A study of Homo sapiens with 4 samples.

Results

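The genes described here are named for the proteins of the cytosolic ribosome and for the factors that start and carry out protein synthesis on it. They were taken by gene symbol as protein-coding genes beginning with RPL or RPS and a digit, without the S6 kinases, or beginning with EIF or EEF. The symbols also take in paralogs, kinases and inhibitors that act on the factors, and enzymes that modify them, so not every member carries out translation. Of the 14884 genes tested, 89 were members, and these were 55 ribosomal protein genes and 34 translation factor genes by symbol. The 55 hold 45 core subunit genes and 10 others, such as paralogs and a readthrough gene. LS411N-5FU-R is a human colon carcinoma line derived from the metastatic line LS411N and selected for resistance to 5-fluorouracil (5-FU), an antimetabolite used against colorectal cancer. Control cells (0 nM, 2 arrays) and cells given 50 nM verticillin A, a fungal epipolythiodioxopiperazine (2 arrays), were both cultured for 3 days in RPMI medium with serum, and both groups carry the selected resistance. RNA was measured on an Affymetrix whole-transcript array. The series concerns trimethylation of histone H3 lysine 9 and 5-FU resistance, and the comparison made here asks how the RNAs of the translation machinery differ after verticillin A. Nothing in the labels names separate cultures behind the 2 arrays of each group. The p-values therefore cover the spread between those arrays alone, and it may be technical.

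A ribosome has a small subunit, which reads the messenger RNA (mRNA), and a large subunit, which joins amino acids. Initiation factors (EIF genes) bring the initiator tRNA and the mRNA cap to the small subunit, and elongation factors (EEF genes) deliver each following tRNA and move the ribosome along. Many of these mRNAs begin with a C followed by a run of pyrimidines, the 5′ terminal oligopyrimidine (TOP) tract, through which the kinase mTOR controls their translation. Phosphorylation of the initiation factor eIF2 by 4 kinases (EIF2AK genes) lowers general initiation in the integrated stress response. Arrays measure RNA and not translation.

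The start of the transcript is shown for members on which the results turn, because the tract lies there. The genes shown were chosen by tract and call after their values were seen, so this selection does not stand for all members. Each line gives 15 bases before and 15 bases from the annotated start, 5′ to 3′ on the gene's strand (RefSeq, GRCh38.p14). Capitals mark a tract, defined as a C at the annotated start followed by at least 4 bases that are each C or T. The first 8 begin with a tract, and none of those 8 genes passed the test.
RPS27 (chr1:153990747-153990776, +): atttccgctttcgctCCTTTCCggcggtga
RPS6 (chr9:19380222-19380251, -): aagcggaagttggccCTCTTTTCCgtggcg
RPL12 (chr9:127451392-127451421, -): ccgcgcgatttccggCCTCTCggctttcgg
RPL36 (chr19:5690280-5690309, +): ccgcgcggcgccagcCCTTCCgccacggcc
RPL24 (chr3:101686704-101686733, -): ttcccatgattctctCTTTCTTTTCgccat
EEF1A1 (chr6:73521018-73521047, -): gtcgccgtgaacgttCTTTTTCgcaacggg
EEF2 (chr19:3985449-3985478, -): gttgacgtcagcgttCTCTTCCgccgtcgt
EIF4B (chr12:53006441-53006470, +): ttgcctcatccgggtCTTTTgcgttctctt
The next 7 genes are those of the called members that had a promoter entry, and none has a tract by this definition. EIF4E2 has 2 annotated starts, and it has a tract only where the tract may begin up to 2 bases from the annotated start.
RPS27L (chr15:63157463-63157492, -): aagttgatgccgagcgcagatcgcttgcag
RPL36AL (chr14:49620612-49620641, -): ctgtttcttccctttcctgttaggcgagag
RPS15 (chr19:1438381-1438410, +): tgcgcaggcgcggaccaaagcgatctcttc
EIF4A3 (chr17:80147114-80147143, -): gttctcggcagcggcacagcgaggtcggca
EIF1AD (chr11:66002143-66002172, -): cgagacagcgccggaagtacggttttcgga
EEF1G (chr11:62573877-62573906, -): tctcccgggcggcttactttgcggcagcgc
EIF4E2 (chr2:232550674-232550703, +): ggtggagcggaagtcactccctgaggcagt
EIF4E2 (chr2:232551052-232551081, +): tggaggggtggggacctcggcggtttgggt
The last also has no tract, and its gene did not pass, as was so for 34 of the 41 members without a tract.
EIF2AK3 (chr2:88627450-88627479, -): ggcgatgtccgagataggctgtcactcagg

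Values are log2 expression values as deposited, and a log2 change is the verticillin A mean minus the control mean, with the standard error (SE) of limma's moderated test. A gene rose or fell where limma's adjusted p was under 0.05 after Benjamini-Hochberg adjustment over all genes. Over the genes tested the control arrays correlated at r = 0.997, the treated arrays at 0.998, and arrays of different groups at 0.993, and array medians over all probe sets were 4.59 to 4.62. Colon epithelial markers fixed as a check were measured for 12 of 14 genes. Among them EPCAM was at a mean of 11.11 in control and 10.94 in treated cells and KRT18 at 10.37 and 10.44, while CDX2 (5.19 and 5.38), KRT20 (4.61 and 4.67) and CEACAM5 (3.55 and 3.67) gave low values. Of these 12 genes 3 passed in limma, a share of 25% against 8.65% of all genes: LGR5 (-1.21 ± 0.12, adjusted p = 0.0113) and VIL1 (-0.62 ± 0.08, adjusted p = 0.0167) fell and KRT19 rose (0.44 ± 0.09, adjusted p = 0.0493). The part of such shifts in the members' changes was not tested. The 4 measured markers of other cell types had means of 3.53 to 4.19. In bulk RNA, fewer cells of a type and less RNA per cell cannot be told apart.

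Most ribosomal protein genes differed little between control and treated cells. Of the 55, 3 rose (RPS27L, RPL36AL and RPS15), 0 fell and 52 did not pass, with 10 at an unadjusted limma p under 0.05. Among all 14884 genes, 3.55% rose, 5.1% fell and 26.7% had an unadjusted p under 0.05. Of the translation factor genes 3 rose (EIF4E2, EIF1AD and EIF4A3) and 2 fell (EIF4EBP1 and EEF1G). Together 8 of the 89 members passed, a share of 8.99% that is near the 8.65% of all genes. The median log2 change of the members was 0.02, and that of all genes -0.01.

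**Figure D1:**
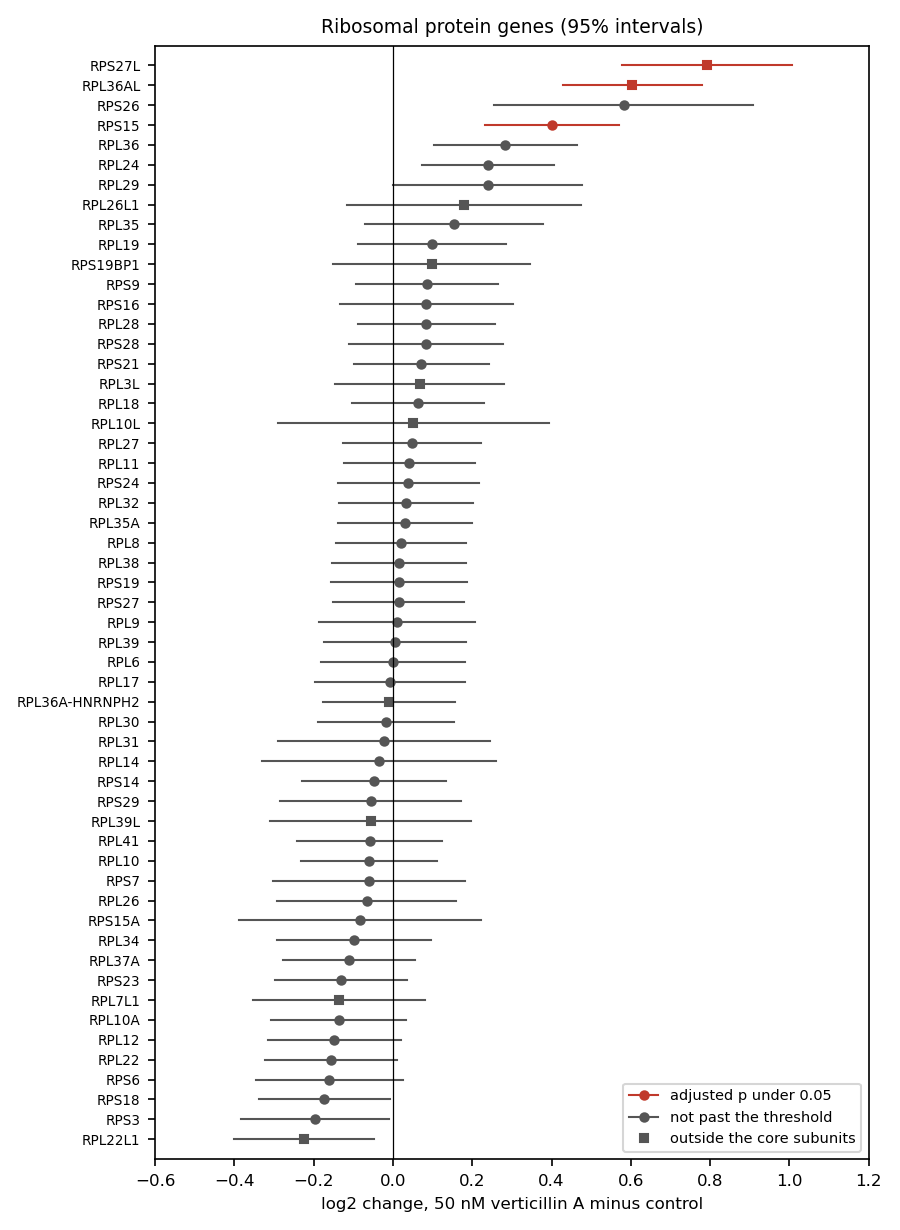
Log2 change (50 nM verticillin A minus control, x axis) of each of the 55 ribosomal protein genes, with limma's 95% interval as a line; red marks an adjusted p under 0.05 and squares mark genes outside the core subunits. The changes run from -0.22 (RPL22L1) to 0.79 (RPS27L), and 36 of 55 are smaller than 0.10 in size.

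The 3 rises were called with 2 arrays a group, and leaving out any of the 4 arrays ended every call among the members, with 0 members called in each of these 4 fits. Of all genes, 0% were called without either control array, 0.934% without verticillin A replicate 1 and 1.03% without replicate 2. All 8 called members kept their direction in those fits. With an intensity trend in limma's prior variance 22 members passed, 24.7% of 89 against 16.3% of all genes, and with the dimmest 50% of genes left out 19 of 78 passed, 24.4% against 32.2%. EIF1, EIF2D and EEF1AKMT2 were among those called under both of these settings, RPL22L1 only without the dimmest genes, and RPS18 and EIF4H only with the trend. A second probe set of RPS18 had a log2 change of 0.01, against -0.17 for the probe set used.

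RPS27L, a paralog of the small subunit protein gene RPS27 and a known p53 target, had the largest rise. Its values were 6.47 and 6.62 in control and 7.28 and 7.39 in treated cells. The groups did not overlap, as in 54.8% of all genes, and the rise was 1.73-fold (log2 change 0.79 ± 0.09, SE, adjusted p = 0.0125). RPS27 itself was at 11.69 and 11.71 in control and 11.71 and 11.73 in treated cells, with a 95% interval of its log2 change from -0.15 to 0.18. RPL36AL, a paralog of the large subunit gene RPL36A, was at 6.51 and 6.57 in control and 7.18 and 7.12 in treated cells. Both treated arrays lay above both controls, as in 25.7% of all genes, and the rise was 1.52-fold (0.60 ± 0.07, adjusted p = 0.015). RPL36A was covered here only by the readthrough gene RPL36A-HNRNPH2, which was at 8.57 and 8.53 in control and 8.55 and 8.54 in treated cells.

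RPS15, a core protein of the small subunit, was at 11.13 and 11.17 in control and 11.53 and 11.57 in treated cells. It rose 1.32-fold (0.40 ± 0.07, adjusted p = 0.0302), and it was the only called gene among the 45 core subunit genes measured, of 73 listed. The other 28 (15 of the large and 13 of the small subunit) were not analysed here. RPS26, named here after its values were seen, had an estimate larger than that of RPS15, but its control arrays lay further apart. It was at 6.98 and 7.34 in control and 7.70 and 7.78 in treated cells (0.58 ± 0.13, adjusted p = 0.0552). It passed after median centring, after quantile normalization, without the dimmest genes and with the trend in the prior. No large subunit core gene passed among 28 measured, with 3 at an unadjusted limma p under 0.05 (26.7% of all genes). RPL36 was at 11.55 and 11.49 in control and 11.77 and 11.84 in treated cells (0.28 ± 0.07, adjusted p = 0.0731), and RPL24 at 7.66 and 7.63 and at 7.89 and 7.88 (0.24 ± 0.07, adjusted p = 0.0865). These were the largest estimates of the large subunit. Both passed without the dimmest genes and with the trend in the prior, and RPL12 passed with the trend.

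The remaining core genes formed a narrow band around no difference. Of the 45 core genes, 31 (68.9%) had a log2 change under 0.10 in size, against 45% of all genes, and 3 (6.67%) had one of at least 0.25, against 22.1%. The 95% interval lay within -0.5 and 0.5, or 1.41-fold in either direction, for 43 of the 45 (95.6%, all genes 78.5%). It lay within -0.25 and 0.25, or 1.19-fold, for 19 of the 45 (42.2%, all genes 21.5%). These intervals are for single genes and cover the spread between arrays alone, so they do not bound a difference between separate cultures. The set of all genes includes dimmer genes, with a lowest value of 2.78 against 4.82 for core genes. The median gap between the control arrays was 0.05 in core genes and 0.10 over all genes. Core genes were not compared with genes of like level, so the part of brightness in these shares was not tested. The estimates went both ways, with 25 positive and 20 negative, and the median was 0.01. RPS6, the small subunit protein phosphorylated by S6 kinases, was at 9.76 and 9.87 in control and 9.63 and 9.67 in treated cells (-0.16 ± 0.07, adjusted p = 0.244). RPS3, which lies at the mRNA entry site, was at 8.57 and 8.68 and at 8.42 and 8.44 (-0.20 ± 0.07, adjusted p = 0.168), the lowest estimate among the core genes. RPL12, of the stalk base, was at 12.82 and 12.77 and at 12.65 and 12.65 (-0.15 ± 0.07, adjusted p = 0.238). In these 3, named after their values were seen, both treated arrays lay below both controls, an arrangement found in 29.1% of all genes.

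Either arrangement without overlap was found in 32 of the 55 ribosomal protein genes, 20 higher and 12 lower. The shares over all genes were 54.8% for either direction, 25.7% higher and 29.1% lower. Ribosomal protein genes have many pseudogene copies whose RNA the probes may share. RPL41, which encodes a very short protein of the large subunit, was at 13.47 and 13.57 in control and 13.44 and 13.47 in treated cells. Its 5 probe sets had log2 changes from -0.09 to 0.14.

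**Figure D2:**
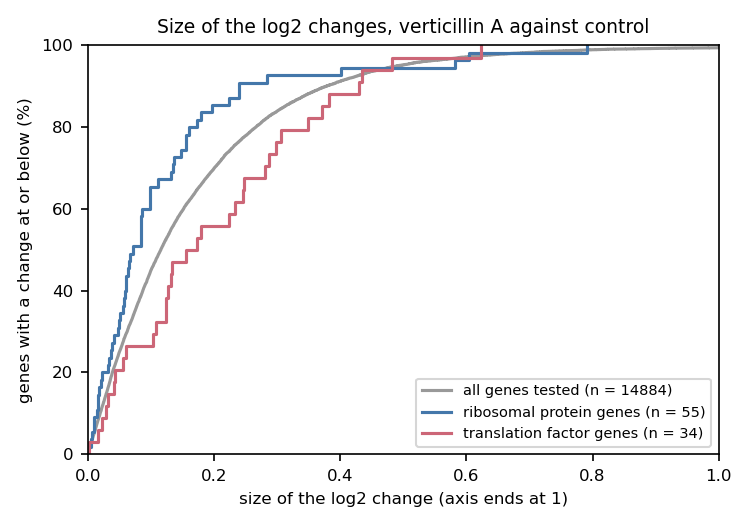
Cumulative share of genes (y axis, %) by the size of the log2 change (x axis) for all 14884 genes tested, the 55 ribosomal protein genes and the 34 translation factor genes. At a change of 0.10 the ribosomal protein curve stands at 65.5%, that of all genes at 45% and the translation factor curve at 26.5%.

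Translation factor genes were spread more widely than ribosomal protein genes, with a median size of log2 change of 0.16 against 0.07, and 0.12 over all genes. Of the 34, 11 (32.4%) had a change of at least 0.25 in size, against 9.09% of ribosomal protein genes and 22.1% of all genes. The groups did not overlap in 29 of the 34, with 17 higher and 12 lower, against 54.8%, 25.7% and 29.1% of all genes. The difference in spread between both classes was not tested. The median gap between control arrays was 0.07 in translation factor genes and 0.10 over all genes, and between treated arrays 0.04 and 0.08. The part of these gaps in the share without overlap was not tested.

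**Figure D3:**
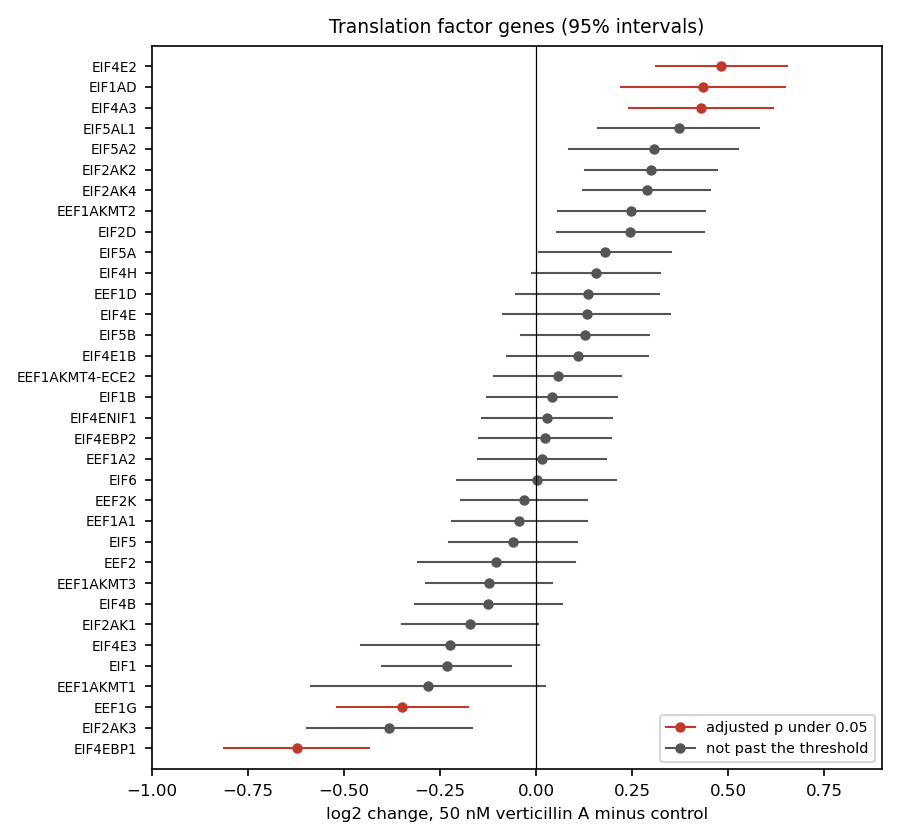
Log2 change (50 nM verticillin A minus control, x axis) of each of the 34 translation factor genes, with limma's 95% interval as a line; red marks an adjusted p under 0.05. EIF4E2, EIF1AD and EIF4A3 lie highest (0.48, 0.44 and 0.43) and EIF4EBP1 lowest (-0.62).

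Among cap-binding and helicase genes, 2 of 7 measured rose and 0 fell, against 3.55% and 5.1% of all genes. EIF4E2 encodes a cap-binding protein known as a repressor of initiation on mRNAs it holds. It was at 7.05 and 7.02 in control and 7.54 and 7.49 in treated cells, a 1.40-fold rise (0.48 ± 0.07, adjusted p = 0.0212). EIF4A3, a helicase related to the initiation factor eIF4A that works in the exon junction complex, was at 9.78 and 9.66 in control and 10.14 and 10.16 in treated cells. It rose 1.35-fold (0.43 ± 0.07, adjusted p = 0.032). The cap-binding initiation factor gene EIF4E was at 9.02 and 8.84 in control and 9.09 and 9.04 in treated cells (0.13 ± 0.09, adjusted p = 0.417). Its relative EIF4E3 was at 8.57 and 8.45 and at 8.37 and 8.19 (-0.22 ± 0.09, adjusted p = 0.201). The estimates had opposite signs, and neither gene passed.

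Of the genes for proteins that hold EIF4E inactive, 3 were measured and 1 fell, where 5.1% of all genes fell. EIF4EBP1, the eIF4E-binding protein that mTOR phosphorylates, was at 9.70 and 9.75 in control and 9.15 and 9.04 in treated cells, the deepest fall of the members at 1.54-fold (-0.62 ± 0.08, adjusted p = 0.0162). EIF4EBP2, its paralog with the same function, was at 10.84 and 10.88 and at 10.86 and 10.91. The 95% interval of its log2 change was -0.15 to 0.19, that of EIF4EBP1 was -0.81 to -0.43, and the difference was not tested. EIF4ENIF1, the eIF4E transporter, named after its values were seen, had a log2 change of 0.03 ± 0.07.

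**Figure D4:**
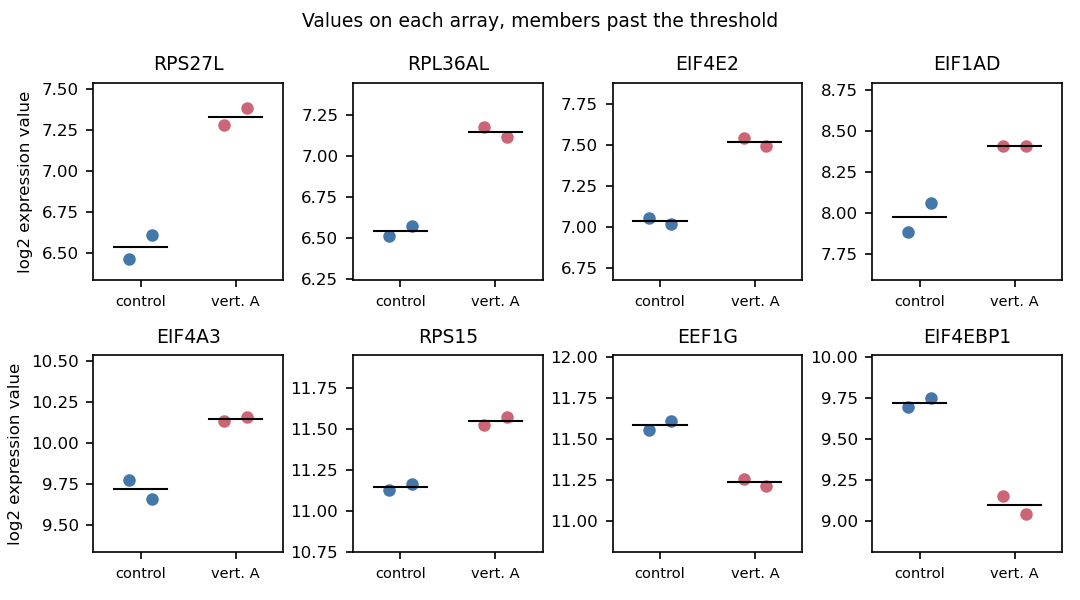
Log2 expression values on each array (points) and group means (lines) for the 8 members with an adjusted p under 0.05, in control and verticillin A cells; all panels span the same number of log2 units. In each of the 8 panels the treated points do not overlap the control points and lie above them in 6 panels and below them in 2. The genes were chosen by the test on these same arrays, so this adds nothing to the calls, and 54.8% of all genes had no overlap.

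The list of scanning and subunit joining genes held 1 rise among 5, against 3.55% of all genes, and the other 4 did not pass. That rise was of EIF1AD, a gene named for its eIF1A-like domain and not shown here to act in scanning or joining. It was at 7.88 and 8.06 in control and 8.41 and 8.41 in treated cells, a 1.35-fold rise (0.44 ± 0.09, adjusted p = 0.0411). EIF1, which keeps the scanning ribosome open until the start codon, was at 11.40 and 11.35 in control and 11.15 and 11.14 in treated cells. That difference of -0.23 ± 0.07 did not pass (adjusted p = 0.0957), and its paralog EIF1B was at 7.32 and 7.33 and at 7.34 and 7.39. EIF2D, which can deliver tRNA without eIF2 and helps recycle ribosomes, was the only measured member of the initiator tRNA group. It was at 9.12 and 9.25 in control and 9.42 and 9.44 in treated cells (0.25 ± 0.08, adjusted p = 0.115). The 14 listed genes of the EIF3 complex and the 5 of the EIF2B exchange factor were not analysed here.

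All 4 eIF2 kinase genes were measured, and 0 passed in limma, with 3 at an unadjusted p under 0.05. Such a p was found in 26.7% of all genes. EIF2AK3, which encodes the endoplasmic reticulum stress kinase PERK, was at 8.45 and 8.51 in control and 8.18 and 8.01 in treated cells (-0.38 ± 0.09, adjusted p = 0.0558). EIF2AK2, the double-stranded RNA-activated kinase PKR, was at 9.81 and 9.74 and at 10.07 and 10.08 (0.30 ± 0.07, adjusted p = 0.0583). EIF2AK4, the amino acid sensing kinase GCN2, named with EIF2AK1 after their values were seen, was at 9.61 and 9.63 and at 9.90 and 9.91 (0.29 ± 0.07, adjusted p = 0.0577). EIF2AK1, the haem-regulated kinase, had a log2 change of -0.17 ± 0.07. The groups did not overlap in any of the 4, with PKR and GCN2 higher and PERK and EIF2AK1 lower, an arrangement without overlap that 54.8% of all genes had. PERK, PKR and GCN2 passed both without the dimmest genes and with the trend in the prior. EIF2AK1 passed with the trend, and GCN2 also after median centring and after quantile normalization.

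Members of the EIF5A and EIF6 group did not pass among 4 measured, with 3 at an unadjusted limma p under 0.05 (26.7% of all genes). EIF5A encodes the hypusine-carrying factor that helps ribosomes through difficult peptide bonds, and it was at 4.95 and 5.02 in control and 5.16 and 5.18 in treated cells (0.18 ± 0.07, adjusted p = 0.174). EIF5A2, its paralog, was at 8.88 and 9.06 and at 9.31 and 9.24 (0.31 ± 0.09, adjusted p = 0.0954). EIF5AL1, a near copy of EIF5A whose RNA its probes may share with EIF5A, was at 4.0 and 4.15 and at 4.40 and 4.49 (0.37 ± 0.08, adjusted p = 0.0557). All 3 were higher on both treated arrays, an arrangement found in 25.7% of all genes. EIF5AL1 lay below the array medians of 4.59 to 4.62, and EIF5A not far above them, where values may be background. EIF5AL1 passed after median centring (adjusted p = 0.0362), and EIF5A2 without the dimmest genes (0.0327) and with the trend in the prior (0.0203). EIF6, which keeps the ribosomal subunits apart, was named after its values were seen and differed by less than 0.01, with an interval from -0.21 to 0.21.

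Of 5 elongation factor genes measured, 1 fell and 0 rose, against 5.1% and 3.55% of all genes. EEF1G encodes the gamma subunit of the exchange factor that recharges eEF1A, and it was at 11.56 and 11.61 in control and 11.25 and 11.21 in treated cells (-0.35 ± 0.07, adjusted p = 0.0411). A second probe set of EEF1G was at 9.10 and 9.13 in control and 9.11 and 9.13 in treated cells, and with the mean of both probe sets the call was lost (-0.17, adjusted p = 0.18). The tRNA carrier genes EEF1A1 (8.72 and 8.64 in control, 8.63 and 8.64 in treated cells) and EEF1A2 (9.09 and 9.07, and 9.08 and 9.11) had intervals of -0.22 to 0.13 and -0.15 to 0.18. EEF2, the translocation factor, named after its values were seen, had a log2 change of -0.10 ± 0.08.

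Among 4 measured genes for kinases and methyltransferases of elongation factors, 0 passed in limma. An unadjusted p under 0.05 was found for 1 of them and for 26.7% of all genes. EEF1AKMT2, a lysine methyltransferase of eEF1A, was at 9.66 and 9.57 in control and 9.90 and 9.82 in treated cells (0.25 ± 0.08, adjusted p = 0.109). EEF1AKMT1, another such enzyme, was at 4.98 and 5.16 and at 4.93 and 4.65 (-0.28 ± 0.12, adjusted p = 0.218). EEF2K, the kinase that inactivates eEF2, also named after its values were seen, had a log2 change of -0.03 ± 0.07. The readthrough gene EEF1AKMT4-ECE2 was at 4.17 and 4.18 in control and 4.22 and 4.25 in treated cells.

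In 10 pairs of related members fixed as a list, the changes of both genes could be set side by side. Only the pairs RPS27 and RPS27L, and EIF4EBP1 and EIF4EBP2, held a called gene, and in both the other gene did not pass. The changes differed by 0.78 in the first pair and by 0.65 in the second. In the other 8 pairs they differed by 0.06 to 0.36 in size. RPL22, a large subunit gene, was at 4.98 and 5.01 in control and 4.82 and 4.85 in treated cells, and its paralog RPL22L1 at 8.02 and 8.07 and at 7.78 and 7.86, so both were lower on both treated arrays (-0.16 ± 0.07 and -0.22 ± 0.07, adjusted p = 0.214 and 0.116). Values lower on both treated arrays were found in 29.1% of all genes. RPL22 lay not far above the array medians of 4.59 to 4.62, where values may be background. RPL26 and RPL26L1 had log2 changes of -0.07 ± 0.09 and 0.18 ± 0.12. RPL10 and RPL39 had log2 changes of -0.06 ± 0.07 and 0.01 ± 0.07, and a second probe set of RPL39 had 0.15. Their paralogs RPL10L (3.09 to 3.48 over the 4 arrays) and RPL39L (3.11 to 3.34) were near the lowest values of the arrays, where no difference could be read. The differences between paralogs were not tested.

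The start sequence divided the members as follows. RefSeq promoter entries were found for 77 of the 89, among them 7 of the 8 called genes and not EIF4EBP1. A tract at an annotated start was present in 32 of 49 ribosomal protein genes (65.3%), 4 of 28 translation factor genes (14.3%) and 988 of 15843 protein-coding genes with an entry (6.24%). Of the 36 members with a tract, 0 passed in limma, and of the 41 without, 6 rose and 1 fell. The split rests on the annotated starts, and the starts used in these cells were not measured. In RPL36AL a run of C and T spans the annotated start, and in RPS15 such a run lies further downstream. Neither counted as a tract, so a gene without a tract here may still have one. The tract-bearing translation factor genes were EEF1A1, EEF2, EIF4B and EIF2D. Among all tested protein-coding genes with an entry, 8.17% of 624 with a tract and 9.57% of 9083 without passed. The median log2 change was -0.02 in members with a tract and 0.06 in those without.

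**Figure D5:**
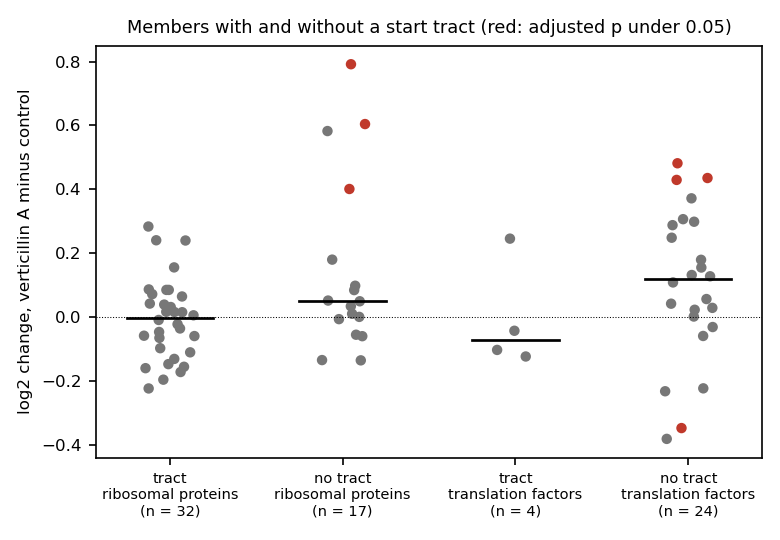
Log2 change (y axis, verticillin A minus control) of the 77 members with a promoter entry, by class and by the presence of a pyrimidine tract at the annotated start; lines are medians and red points have an adjusted p under 0.05. The 36 members with a tract lie between -0.22 and 0.28, and all 7 red points lie in the groups without a tract.

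With a tract allowed to begin up to 2 bases to either side of the annotated start, a choice made after seeing the data, 1 of 41 members with a tract passed (EIF4E2) and 6 of 36 without. Since tract and class go together, the ribosomal protein genes were also set apart. Among them 0 of 32 with a tract and 3 of 17 without passed. With so few calls, the difference was not tested. Promoter entries were also searched on both strands, over 250 bases before and 50 after the start, for CCGGAAG, a core of ETS factor sites, which 28.6% of the members and 16.5% of all protein-coding genes held. TGATGNAA, a core of the joint site of C/EBP and ATF factors, was in 3.9% and 3.6%, and the 3 members that held it were RPL31, RPS23 and EIF4E3.

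Partner genes of translation outside the symbol rule were read from fixed lists. Over all genes 3.55% rose and 5.1% fell. Of 15 measured genes of other initiation and termination factors, 1 fell and 0 rose. This was PDCD4, an inhibitor of the helicase eIF4A, at 8.89 and 8.84 in control and 8.13 and 8.16 in treated cells (-0.72 ± 0.07, adjusted p = 0.00996). Of 17 genes of the mTORC1 pathway, 4 fell and 1 rose. DDIT4 (-1.82 ± 0.10), SESN2 (-1.25 ± 0.08) and SESN3 (-1.05 ± 0.11), which restrain mTORC1, fell most, and the remaining calls, named for completeness, were DEPTOR (-0.43 ± 0.08) and SESN1 (0.56 ± 0.07). Of 8 genes of eIF2 dephosphorylation and the integrated stress response, 4 fell and 0 rose, with TRIB3 (-2.0 ± 0.08), DDIT3 (-1.80 ± 0.08), IMPACT, an inhibitor of GCN2 (-0.55 ± 0.07), and ATF4, which activates the stress genes (-0.47 ± 0.07).

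Of 25 ribosome assembly genes, 2 rose and 0 fell, against 3.55% and 5.1% of all genes. The 2 were NHP2, of the pseudouridylating snoRNPs (0.39 ± 0.07), and BCCIP (0.33 ± 0.07), and the list median was 0.07. Of 7 measured TOP-type RNAs that encode no ribosomal protein, the snoRNA host gene ZFAS1 fell (-0.39 ± 0.07) and 0 rose, with a median of -0.18. Of 7 genes for the diphthamide of eEF2 and the hypusine of eIF5A, 0 passed in limma, with 4 at an unadjusted p under 0.05. Of all genes, 26.7% had such a p. FAU, a fused ubiquitin-like and small subunit gene, was the only other ribosomal subunit gene measured, with a log2 change of 0.29 ± 0.09 that did not pass (adjusted p = 0.0993).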

How the data were processed

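For every probe set and array the authors deposited a log2 value, made with GCRMA per the submitters' processing notes. The sources used here give no version, annotation or genome build, and the log2 scale was read from the range of the values, 2.60 to 14.47. Per the labels' protocols, biotinylated cDNA was prepared from 250 ng of total RNA. GEO's platform annotation names 16098 of 53617 probe sets, and gene identifiers were matched to RefSeq (GRCh38.p14) for symbols and gene class. A gene with several probe sets was represented by that with the highest mean, which left 14884 genes. Without detection calls, dim values may be background, and 2 arrays a group limit the precision.

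A linear model of treatment was fitted to all 14884 genes and 4 arrays, unfiltered, with limma 3.58.1 (lmFit, then eBayes with a constant prior) under R 4.3.3. P-values were two-sided and Benjamini-Hochberg adjusted over all genes. The fit was tested on simulated data. No tests were made over lists. The members and lists were chosen with earlier results of these data known. Named members are those past the threshold, the 2 with the largest change in each role list without one, the related pairs, and the members with the highest and lowest values, and up to 3 called genes of each partner list. All other genes, among them EIF2AK1, EIF2AK4, EIF4ENIF1, EIF6, EEF2, EEF2K, RPS26, RPS6, RPS3, RPL12, EIF4B, DEPTOR, SESN1, ATF4, FAU and the named markers and pseudogenes, were named after their values were seen. Alternatives were a replicate block, each array left out, the mean of a gene's probe sets, median centring, quantile normalization, the dimmest 50% of genes left out, and an intensity trend in the prior. Transcript starts are from RefSeq, GRCh38.p14.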

Additional observations from a re-analysis of the deposited data

How the results depend on the processing

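The 8 called members kept their direction under all 10 alternatives, and 4 of them (RPS27L, RPL36AL, EIF4E2 and EIF4EBP1) passed in all 6 that use 4 arrays. With each array left out in turn, the counts of called members, ribosomal protein genes and translation factor genes ranged from 0 to 0, higher and lower alike; these fits have fewer residual degrees of freedom, and the lone array of a group is assumed to vary like the other group. With the replicate number as a block, 4 members were called (3 higher, 1 lower) and 2 translation factor genes (1 higher, 1 lower), which is 4.49% of members against 3.98% of all genes; same-numbered arrays deviated with r = 0.01 over genes, which does not pair them. With the mean of a gene's probe sets, 1 member was called lower, a translation factor gene. In that setting 7.87% of members and 8.54% of all genes were called. After median centring 5 translation factor genes were called higher, and the median log2 change of the members was 0.0552. The called share was then 12.4% of members and 9.53% of all genes. Without the dimmest 50% of genes, 19 members were called (14 higher, 5 lower), 7 of them ribosomal protein genes (6 and 1) and 12 translation factor genes (8 and 4). With the intensity trend, 22 were called (15 and 7), 8 ribosomal protein genes (6 and 2) and 14 translation factor genes (9 and 5). Uncalled members near 0 changed sign in places: RPL41 (0.0288 with the mean of its probe sets), RPL36A-HNRNPH2 (0.0293 after median centring and 0.0278 after quantile normalization) and RPS27 (-0.00545 after quantile normalization). With arrays left out, log2 changes ranged from -0.0293 to 0.0101 for RPL36A-HNRNPH2, -0.0386 to 0.0488 for RPL39, -0.164 to 0.0513 for RPL39L, -0.168 to 0.0362 for RPL26, -0.145 to 0.248 for RPL10L and -0.0041 to 0.0489 for EIF4EBP2. The cause of these differences was not tested.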

Other observations

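Among genes outside the symbol rule, 23 annotated ribosomal pseudogenes had a probe set, with a median log2 change of 0.01, and 1 rose and 1 fell. That share of 8.7% is near the 8.65% of all genes. RPL13AP6 was at 4.50 and 4.47 in control and 3.86 and 3.73 in treated cells (-0.70 ± 0.08, SE, limma adjusted p = 0.0133). These values lay below the array medians of 4.59 to 4.62, where values may be background. RPL23AP32 was at 8.08 and 8.24 in control and 8.57 and 8.62 in treated cells (0.44 ± 0.08, limma adjusted p = 0.0371). RPL23AP82 and RPL23AP87 had identical values on all 4 arrays (8.46 and 8.33 in control, 8.80 and 8.71 in treated cells), so they count as a single measurement. RPL23A and RPL13A, the parent genes, were not analysed here.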
